A study of Mus musculus with 6 samples.

Results

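The transcripts of 41 genes that act in S phase and DNA replication were followed in cultured T helper 9 (Th9) cells from wild-type and Cblb-/- mice. The genes were taken from a list of symbols and were not picked by their measured values. The list was, however, chosen with earlier results of these data known. All 41 genes were among the 17369 genes of the deposited single-cell table. They were sorted here by role into 6 subunits of the MCM helicase, 4 origin factors, 9 replication fork genes, 3 nucleotide supply genes, 8 chromatin and histone supply genes, 6 repair genes, and 5 cell cycle and ubiquitin genes. The design lists 3 mice per genotype, with Cblb-/- (knockout) as the altered allele and wild type as the control. In both genotypes naive CD4+ T cells from the spleen were cultured for 48 h with hTGFβ at 3 ng/ml, IL-4 at 20 ng/ml and anti-IFNγ at 20 µg/ml, then purified with CD4 (L3T4) MicroBeads, so every cell had received the Th9-inducing agents and no untreated culture entered the comparison. Cblb encodes a ubiquitin ligase that restrains T cell activation. The table names its 6 libraries by sequencing index and genotype only, so the letters A, B and C stand here for the wild-type libraries and D, E and F for the Cblb-/- libraries. The labels state no shared culture or day, and p-values measure the spread between these libraries.

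Before DNA is copied, the origin factors ORC and Cdc6 load rings of Mcm2 to Mcm7 onto origins, and Cdc45 with the GINS complex turns the ring into the active helicase. Polymerases, primase, the PCNA clamp and the single-strand binding protein RPA then work at the fork, fed by ribonucleotide reductase and thymidylate synthase, while chaperones pack the new DNA with histones. Many of these genes are classic targets of the E2F transcription factors, which are released from the RB protein when a cell commits to S phase. Activated T cells are known for rapid division, and high levels of these transcripts mark cycling T cells.

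Among the 27258 cells (12755 wild type, 14503 Cblb-/-), each library held 3423 to 5666 cells, with a median of 35573 to 39628 raw transcript molecules (unique molecular identifiers, UMIs) per cell and a library total of 149381789 to 229387950. Values are sctransform-corrected counts, which are adjusted by the authors to a common depth per cell. They were summed over the cells of a library and are given in ppm (counts per 1000000 of the library's corrected counts). Cblb itself was at 30.9 to 32.6 ppm in the wild-type libraries and 15.02 to 18.4 ppm in the Cblb-/- libraries, a log2 difference of -0.85 (SE 0.08, limma with Benjamini-Hochberg adjustment, adjusted p = 0.000816). The labels do not say which part of the gene is deleted, so reads at its 3′ end need not report on it. All 8 CD4 T cell markers were above 5 ppm and summed to 2314 to 2369 ppm in wild type and 2104 to 2253 ppm in Cblb-/- libraries. Of the CD8 markers, Cd8a was at a mean of 0.14 ppm and Cd8b1 at 8.49 ppm, and their sum was 5.68 to 7.204 ppm in wild type and 10.2 to 11.1 ppm in Cblb-/- libraries, which did not overlap. The B cell list summed to 68.0 to 75.2 ppm and 69.6 to 114 ppm, with Cd74 (64.4 to 106 ppm) the 1 gene of 5 that averaged above 5 ppm. No gene of the myeloid, mast cell or basophil and NK lists reached that mean, and their sums were at most 3.40, 3.63 and 0.102 ppm. The part of these markers in the results was not tested. In libraries D and F, 9.64% and 9.36% of cells lay above the 99th percentile of wild-type cells in a sum of low-oxygen response genes, against 0.436% to 1.67% in the other 4 libraries. A total of 76 cell barcodes occurred in more than 1 library. Fewer cells in S phase and less transcript per cell in S phase cannot be told apart in a sum over a library.

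The replication genes were slightly lower in Cblb-/- cells. Their summed level was 4620.9, 4591.0 and 4705.7 ppm in libraries A, B and C and 4313.3, 4383.8 and 4406.9 ppm in libraries D, E and F. The genotypes did not overlap, and the means were 4639 ± 59.5 and 4368 ± 48.8 ppm (SD, n = 3 each), a difference of -5.85%. In limma fits over all 8475 tested genes, 7 of 41 members (17.1%) fell and 1 (2.44%) rose at an adjusted p under 0.05, where 13.4% of all tested genes fell and 11.0% rose. The 7 were the repair enzyme Ung, the helicase subunits Mcm6 and Mcm7, the RPA subunit Rpa2, the ubiquitin ligase receptor Dtl and the histone chaperones Chaf1b and Nasp, and the 1 that rose was the cyclin Ccne2. The share that fell was thus near the background and the share that rose was below it.

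The log2 difference was below 0 for 30 of the 41 members (73.2%) and for 53.5% of all tested genes, and its median was -0.07 for the members against -0.01 for all tested genes. For 18 members (43.9%) the 3 Cblb-/- libraries all lay below the 3 wild-type libraries, where the background was 25.6%, and for 1 member (2.44%, background 19.7%) they all lay above. An unadjusted p under 0.05 was reached by 15 members (36.6%), against 39.2% of all tested genes. The differences were small. The 7 members that fell did so by 7.75% to 16.8%, and Ccne2 was 1.28-fold higher. The number of members that fell was 4, 3, 2, 5, 11 and 7 when library A, B, C, D, E or F was left out, and Ccne2 missed the threshold without A (adjusted p = 0.0557) or without B (0.0539). The same omissions moved the count over all tested genes from 1139 that fell to 408, 442, 381, 846, 1396 and 1154. Without the cells high in low-oxygen genes, 5 members fell and 1 rose, with no count over all tested genes in that setting set beside them.

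**Figure D1:**
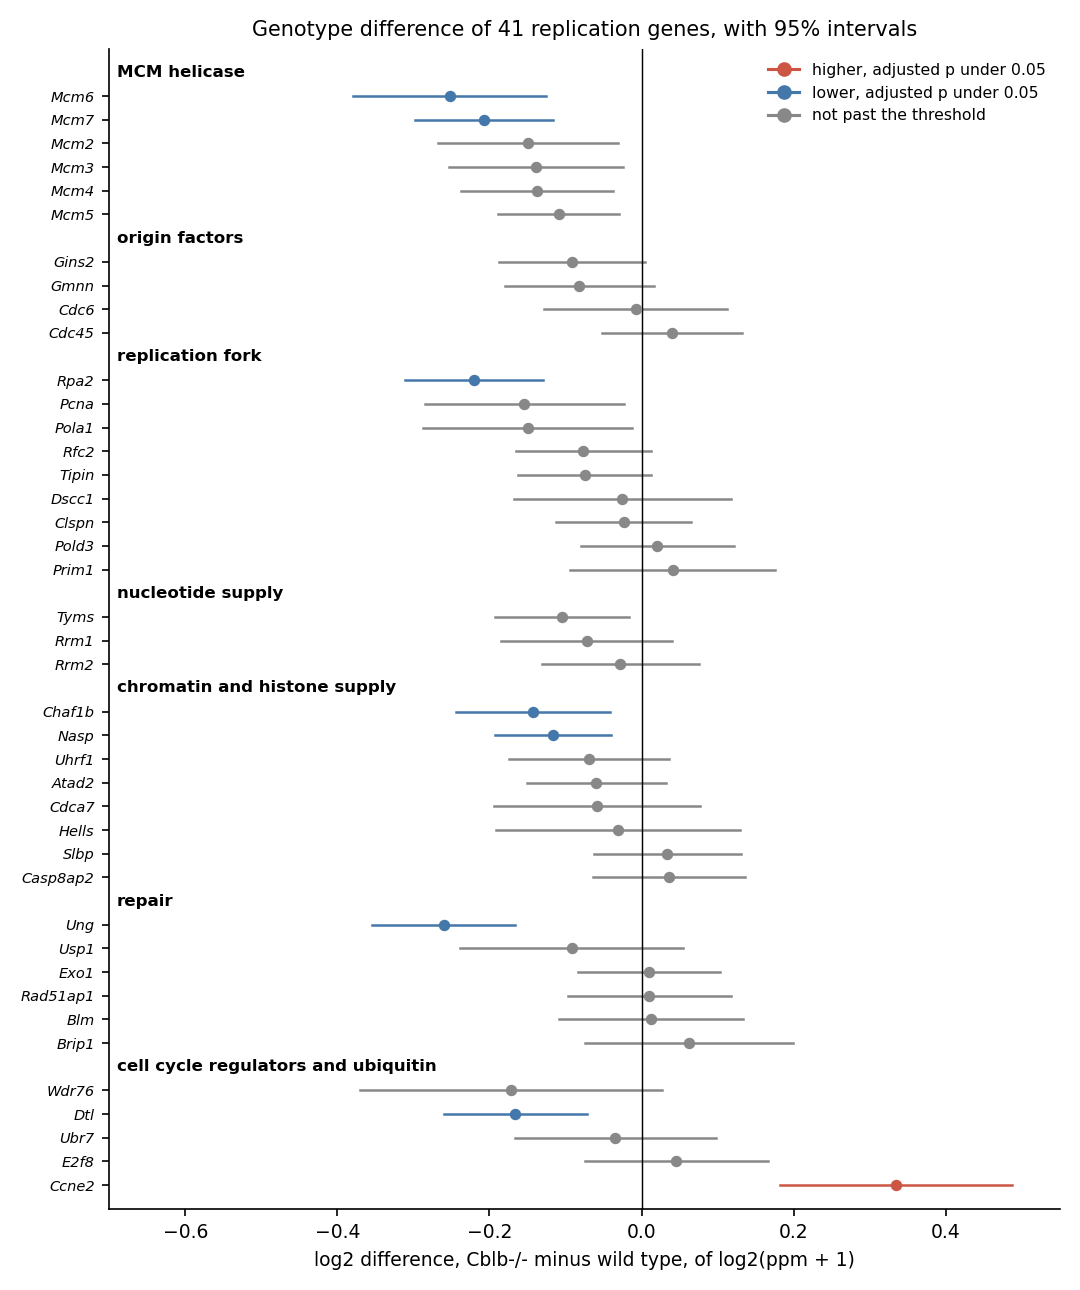
Log2 difference (Cblb-/- minus wild type, x axis, of log2(ppm + 1)) of each of the 41 replication genes, grouped by role, with 95% intervals from the limma fit over 3 libraries per genotype. The 6 MCM subunits all lie to the left of 0, 7 genes in blue fell, and Ccne2 in red, at 0.34, is the only one that rose.

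The 6 MCM subunits, the ring that unwinds DNA ahead of the polymerases, were all lower in each Cblb-/- library than in each wild-type library, which held for 25.6% of all tested genes. All 6 had an unadjusted p under 0.05, as did 39.2% of all tested genes. Their summed level was 1045, 1060.2 and 1099.7 ppm in A, B and C against 950.3, 943 and 967 ppm in D, E and F, a difference of -10.8%. Only Mcm6 and Mcm7 passed the adjusted threshold, where 13.4% of all tested genes fell. Mcm6, which lies between Mcm2 and Mcm4 in the ring, was at 188, 194 and 198 ppm in the wild-type libraries and 151, 173 and 164 ppm in the Cblb-/- libraries. It was lowest in library D, and the groups did not overlap. Its log2 difference was -0.25 (SE 0.05, adjusted p = 0.0155), which missed the threshold without library B (0.0592) or C (0.0722). Mcm7, at 160, 164 and 168 against 144, 137 and 144 ppm, was similarly separated, by -0.21 (SE 0.04, adjusted p = 0.0101, and 0.0552 without library C).

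The other helicase subunits gave smaller separations of the same sign. Mcm2 differed by -0.15 (adjusted p = 0.0682), Mcm3 by -0.14 (0.0771), Mcm4 by -0.14 (0.0527) and Mcm5 by -0.11 (0.0536), with standard errors of 0.03 to 0.05. None of the 4 passed in the limma fit, and each passed under some alternatives: Mcm2 and Mcm4 in 4 of 19, Mcm3 in 3 and Mcm5 in 2. Among these, Mcm2 passed without library D (0.0484), Mcm3 without F (0.0465) and Mcm4 without E (0.0329).

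**Figure D2:**
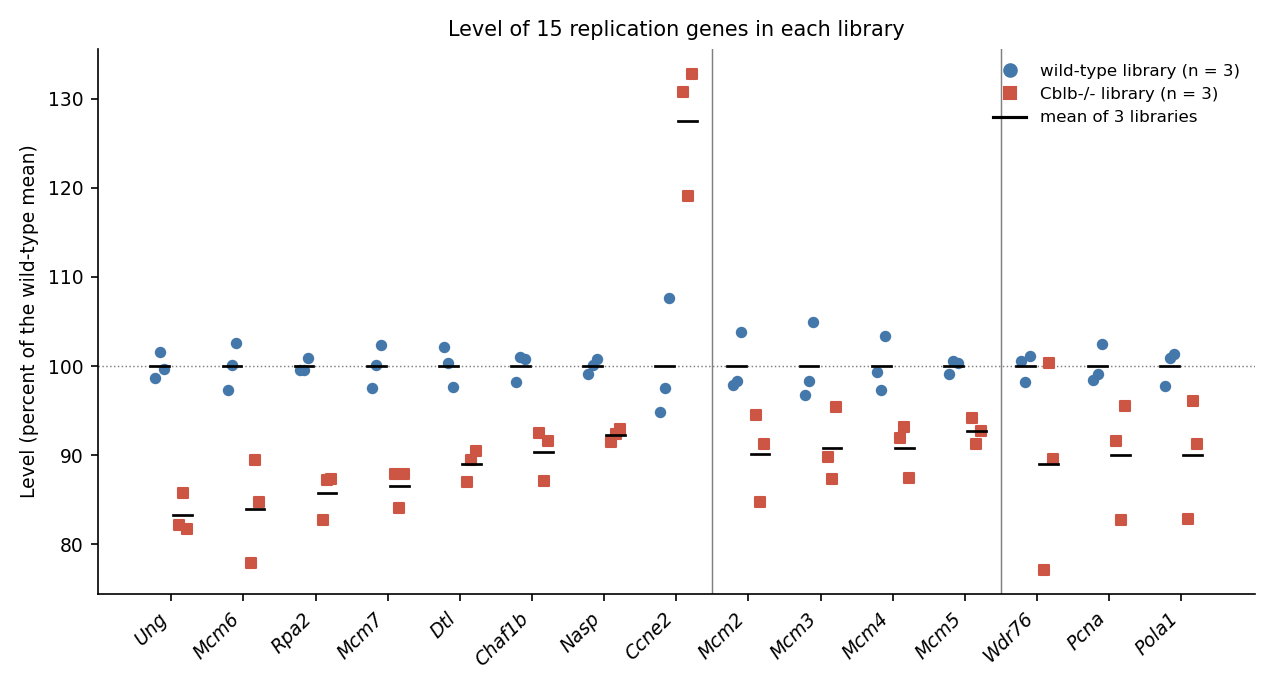
Level of 15 replication genes in each library, as a percent of the wild-type mean (circles, 3 wild-type libraries; squares, 3 Cblb-/- libraries; bars, means). Left of the first line are the 8 genes past the threshold, then the 4 other MCM subunits, then the 3 uncalled genes with the largest differences, of which Wdr76 overlaps between genotypes.

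The start-site regions of the MCM genes are shown because all 6 were lower in every Cblb-/- library. RefSeq windows on build GRCm38.p6, from 250 bases before to 50 bases after the start, were found for 31 of the 41 members. They were searched on both strands for an E2F-type motif, in any of the spellings TTTCCCGC, TTTCGCGC, TTTGCCGC and TTTGGCGC, whose matches may overlap one another and are in capitals below. Written 5′ to 3′ on the gene's strand, the windows are Mcm6 at chr1:128359656-128359955 (minus strand), Mcm7 at chr5:138171834-138172133 (minus), Mcm3 at chr1:20820263-20820562 (minus), Mcm5 at chr8:75109259-75109558 (plus) and Mcm2 at chr6:88898731-88899030 (minus).
Mcm6: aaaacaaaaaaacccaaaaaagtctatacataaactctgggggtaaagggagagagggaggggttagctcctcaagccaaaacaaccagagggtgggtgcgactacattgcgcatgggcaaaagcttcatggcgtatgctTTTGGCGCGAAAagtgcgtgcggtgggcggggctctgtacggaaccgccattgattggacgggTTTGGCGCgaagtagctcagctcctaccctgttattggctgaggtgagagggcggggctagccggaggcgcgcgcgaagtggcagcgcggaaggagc
Mcm7: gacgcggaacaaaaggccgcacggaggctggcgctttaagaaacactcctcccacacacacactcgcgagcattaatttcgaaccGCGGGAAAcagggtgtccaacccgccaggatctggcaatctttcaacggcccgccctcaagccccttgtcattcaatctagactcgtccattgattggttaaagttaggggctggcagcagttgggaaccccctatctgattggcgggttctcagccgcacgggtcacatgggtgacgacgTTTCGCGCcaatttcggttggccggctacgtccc
Mcm3: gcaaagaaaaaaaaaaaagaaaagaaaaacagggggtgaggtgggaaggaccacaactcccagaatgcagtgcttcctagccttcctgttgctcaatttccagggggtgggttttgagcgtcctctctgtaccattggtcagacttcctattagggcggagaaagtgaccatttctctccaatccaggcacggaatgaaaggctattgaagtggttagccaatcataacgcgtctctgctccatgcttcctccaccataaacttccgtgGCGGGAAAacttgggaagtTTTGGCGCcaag
Mcm5: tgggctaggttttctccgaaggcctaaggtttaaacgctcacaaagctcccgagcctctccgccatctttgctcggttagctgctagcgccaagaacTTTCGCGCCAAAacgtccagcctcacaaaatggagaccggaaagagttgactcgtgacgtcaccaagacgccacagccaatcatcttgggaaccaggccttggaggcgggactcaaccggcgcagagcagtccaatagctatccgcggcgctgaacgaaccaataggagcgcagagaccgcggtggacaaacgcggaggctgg
Mcm2: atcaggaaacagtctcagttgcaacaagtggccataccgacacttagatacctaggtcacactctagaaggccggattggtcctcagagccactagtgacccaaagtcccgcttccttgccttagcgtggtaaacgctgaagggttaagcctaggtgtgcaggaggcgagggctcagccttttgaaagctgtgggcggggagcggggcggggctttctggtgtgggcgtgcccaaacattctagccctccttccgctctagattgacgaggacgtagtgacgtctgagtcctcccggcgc

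Matches began at positions -110, -106 and -47 in the Mcm6 window, -165 and +17 in Mcm7, +20 and +39 in Mcm3, and -153 and -149 in Mcm5, counting the start base as +1. No spelling occurred in the Mcm2 window or in a separate RefSeq start of Mcm7. The motif was found for 14 of 31 members (45.2%) and for 704 of 27025 genes with such a window (2.60%). These 27025 genes are a wider set than the 8475 tested ones, and no motif share was computed over tested genes alone. A CCAAT box, searched as CCAAT on both strands, was found for 23 of 31 members (74.2%) against 41.1% of genes, and the CHR element of mitotic genes, searched as TTTGAA or TTCGAA on both strands, for 6 of 31 (19.4%) against 21.7%. The E2F-type motif was held by 3 of the 7 members that fell and by 11 of the 24 with a window that did not pass. A match is a description of letters and not evidence of binding.

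The 4 origin factors did not pass the test, at adjusted p-values of 0.143 to 0.925. Gins2, a GINS subunit, and Gmnn (geminin, which blocks renewed loading of MCM rings) were lower in all 3 Cblb-/- libraries, by -0.09 and -0.08. Cdc6, the MCM loader, stood at 43.6 ± 1.64 ppm in wild type and 43.3 ± 2.12 ppm in Cblb-/- (SD, n = 3 each), a log2 difference of -0.01 with a 95% interval of -0.13 to 0.11. Cdc45, the partner that activates the ring, differed by 0.04 (-0.05 to 0.13).

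Of the 9 replication fork genes, 1 fell, where 13.4% of all tested genes fell. Rpa2, the middle subunit of the single-strand DNA binding complex RPA, was at 99.4, 99.5 and 101 ppm in A, B and C and at 82.6, 87.1 and 87.2 ppm in D, E and F. The wild-type libraries lay within 1.5 ppm of one another and well above every Cblb-/- library. The log2 difference was -0.22 (SE 0.04, limma adjusted p = 0.00799), and Rpa2 passed in all 19 alternatives. Pcna, the sliding clamp, was at 165, 166 and 171 ppm against 153, 138 and 160 ppm. Its groups did not overlap, but library E stood low, and its -0.15 (SE 0.06) did not pass (adjusted p = 0.0823). It passed without library F (0.0424), and without library E the difference was -0.10. Pola1, the catalytic subunit of polymerase alpha that starts each new strand with primase, was at 37.4, 38.6 and 38.7 ppm against 31.6, 36.7 and 34.9 ppm. It too was separated without passing (-0.15, SE 0.06, adjusted p = 0.103), and it passed without library E (0.0235), while without library D the difference was -0.09. The clamp loader subunit Rfc2 and the fork protector Tipin were lower in every Cblb-/- library by under 0.08 on the log2 scale. The primase subunit Prim1 (0.04), the polymerase delta subunit Pold3 (0.02), the checkpoint mediator Clspn (-0.02) and the alternative clamp loader subunit Dscc1 (-0.03) overlapped between genotypes.

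None of the 3 nucleotide supply genes passed in the limma fit over all cells, and 1 had an unadjusted p under 0.05, as did 39.2% of all tested genes. That was Tyms, the thymidylate synthase, at 205 ± 3.77 ppm in wild type and 191 ± 5.03 ppm in Cblb-/- (SD, n = 3 each), with a log2 difference of -0.10 (adjusted p = 0.0799, and 0.0379 without library E). The large ribonucleotide reductase subunit Rrm1 (-0.07) and the small subunit Rrm2 (-0.03) overlapped between genotypes.

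In the chromatin and histone supply group, 2 of 8 genes fell, both histone chaperones, where 13.4% of all tested genes fell. Nasp, which guards the pool of soluble histone H3 and H4, was at 366, 369 and 372 ppm in wild type and 337, 341 and 343 ppm in Cblb-/- libraries. Its groups were tight and apart, with a log2 difference of -0.12 (SE 0.03, adjusted p = 0.0386). Chaf1b, a subunit of the CAF-1 complex that lays histones on new DNA, was at 38.9, 39.96 and 39.9 ppm against 36.6, 34.5 and 36.2 ppm, also apart, by -0.14 (SE 0.04, adjusted p = 0.0485). These were the most fragile of the calls. Nasp passed in 9 of 19 alternatives and Chaf1b in 8, and each missed the threshold when any wild-type library was left out (adjusted p from 0.108 to 0.14 for Nasp and from 0.12 to 0.174 for Chaf1b). Nasp also missed it without D (0.072) or F (0.0591), and Chaf1b without D (0.0585), E (0.0505) or F (0.0627). The others overlapped between genotypes: the maintenance methylation factor Uhrf1 (-0.07), the chromatin ATPases Atad2 (-0.06) and Hells (-0.03), the Hells partner Cdca7 (-0.06), and the histone mRNA factors Slbp (0.03) and Casp8ap2 (0.04).

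The repair group held the gene with the most negative difference of all 41. Ung, the uracil-DNA glycosylase that removes uracil from new DNA, lies at chr5:114130386-114139323 (mm10, GENCODE M21, plus strand). It was at 55.4, 57.0 and 55.9 ppm in A, B and C and at 46.1, 48.1 and 45.9 ppm in D, E and F. No Cblb-/- library came within 7 ppm of a wild-type library. The log2 difference was -0.26 (SE 0.04, adjusted p = 0.00536), a 16.8% lower mean, and Ung passed in all 19 alternatives. When cells were averaged as log2(value + 1), which gives cells with many copies less weight, the difference was -0.13. That scale adds 1 to the count of each cell, so its size is not comparable with -0.26. The other 5 repair genes did not pass. Exo1, Rad51ap1, Blm and Brip1, an exonuclease, a recombination factor and a pair of DNA helicases, differed by 0.01 to 0.06, and the deubiquitinase Usp1 by -0.09.

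Of the 5 regulators, Ccne2 rose and Dtl fell, where 11.0% of all tested genes rose and 13.4% fell. Ccne2, cyclin E2, which drives entry into S phase together with Cdk2, lies at chr4:11191351-11204779 (mm10, plus strand). It was at 17.2, 17.7 and 19.5 ppm in the wild-type libraries and 23.7, 21.6 and 24.1 ppm in the Cblb-/- libraries. Every Cblb-/- library was above every wild-type library, with a log2 difference of 0.34 (SE 0.07, adjusted p = 0.0114). When cells were averaged as log2(value + 1), a scale not comparable in size, the difference was 0.14. Dtl, the substrate receptor of a ubiquitin ligase that destroys the licensing factor Cdt1 in S phase, was at 62.3, 61.2 and 59.6 ppm against 53.1, 54.6 and 55.2 ppm. It was separated by -0.17 (SE 0.04, adjusted p = 0.0228) and missed the threshold without A (0.104), B (0.0975), C (0.0637) or D (0.0528). Wdr76 was at 41.2, 40.2 and 41.4 ppm against 31.6, 41.1 and 36.7 ppm, so library E lay within the wild-type range. Its -0.17 (SE 0.09) did not pass (adjusted p = 0.18), and the difference ranged from -0.08 without library D to -0.26 without library E, where it passed (0.0191). The repressor E2f8 (0.05) and the ubiquitin ligase Ubr7 (-0.03) overlapped.

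Genes of the same processes outside the 41 were counted from related lists in the same fit. Of the replication-dependent histones, 17 of 22 tested (77.3%) fell and none rose, where 13.4% of all tested genes fell. Their median log2 difference was -0.54, against -0.01 over all tested genes, and 20 of 22 were at an unadjusted p under 0.05, against 39.2%. Hist1h2bj went from 35.2 ± 3.04 to 12.9 ± 1.82 ppm (-1.39, adjusted p = 0.000462), and Hist1h3a (-1.22), Hist1h1a (-1.11) and Hist1h3c (-0.95) also fell. Most of these mRNAs end in a stem-loop in place of the poly(A) tail that the 3′ kit primes on, and the 22 were those of 64 that reached 5 ppm. Leaving out 1 library at a time left 15 to 20 histone genes that fell.

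The other lists are set beside the shares over all tested genes, of which 13.4% fell, 11.0% rose and 39.2% had an unadjusted p under 0.05. Of 19 nucleotide synthesis genes outside the 41, 8 (42.1%) fell and 1 (5.26%) rose (median -0.15), and 10 did not pass. The thymidylate kinase Dtymk (-0.49), the dCTP pyrophosphatase Dctpp1 (-0.39) and the purine enzyme Gart (-0.26) fell, and the guanine nucleotide enzyme Impdh2 (0.26) rose. Among 12 further chromatin assembly genes 4 (33.3%) fell and none rose (median -0.12, with 58.3% at an unadjusted p under 0.05), namely the chaperone Asf1a (-0.33), the FACT subunits Supt16 (-0.26) and Ssrp1 (-0.13), and the maintenance methyltransferase Dnmt1 (-0.13). Among 24 further polymerase, clamp and fork genes 3 fell (Pole3 -0.21, Rpa1 -0.20, Pold2 -0.17) and Pold4 rose (0.32), with a median of -0.04, and the 12.5% that fell was near the background. Among 20 further origin and helicase genes the GINS subunit Gins4 fell (-0.19) and none rose (median -0.06, 5 at an unadjusted p under 0.05). Among 25 further repair and checkpoint genes Xrcc3 (-0.28) and the kinase Wee1 (-0.21) fell and none rose (median -0.01, 6 at an unadjusted p under 0.05). Without library C, Dtymk and Impdh2 missed the threshold (both at 0.0515), and without any 1 of A, B or C so did Asf1a, Ssrp1, Dnmt1, Pole3, Rpa1, Pold2, Gins4 and Wee1, at adjusted p-values of up to 0.176. Gart was lost without A or C (up to 0.0659) and Xrcc3 without A, C or D (up to 0.119), and without B Xrcc3 averaged 4.998 ppm, under the 5 ppm minimum, and was not tested. Omitting D also lost Gins4, Rpa1, Dnmt1, Ssrp1 and Wee1, omitting E lost Ssrp1, and omitting F lost Gins4, Pold2, Dnmt1 and Wee1.

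Of 30 E2F, RB and cyclin regulators, 4 (13.3%) rose, near the 11.0% of all tested genes, and none fell, where 13.4% of all tested genes did. The median was 0.09, and 9 of 30 (30.0%) were at an unadjusted p under 0.05, against 39.2%. The CDK inhibitor Cdkn1a rose from 18.2 ± 4.91 to 44.3 ± 11.5 ppm (1.24, adjusted p = 0.00816), cyclin D2 (Ccnd2) rose from 546 ± 20.8 to 806 ± 53.0 ppm (0.56), and Cdkn2d (0.36) and Cdk6 (0.19) rose as well. The latter pair missed the threshold when A, B or C was left out, and Cdkn2d also without D or F (adjusted p of up to 0.123). Of 56 genes of G2 and mitosis, 3 fell (Nek2 -0.24, Cks2 -0.20, Tmpo -0.17) and 1 rose (Top2a 0.19), with a median of -0.01. Nek2 and Tmpo missed the threshold without A, B or C (up to 0.128), Nek2 also without F, and Cks2 without C (0.0525).

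The same fit was made within the deposited clusters. In all, 6 clusters held at least 50 cells in every library, and 24 cells outside them were left untested. Cluster makeup differed by genotype: cluster 1 held 43.1% to 46.1% of wild-type and 17.5% to 31.1% of Cblb-/- cells, cluster 0 held 31.4% to 32.0% and 46.6% to 55.1%, and cluster 2 held 3.86% to 5.87% and 10.1% to 18.0%. The summed level of the replication genes had a mean over libraries of 4485, 4507, 4679, 4666, 4046 and 4577 ppm in clusters 0 to 5. It was lowest in cluster 4, which held 2.57% to 3.49% of wild-type and 5.70% to 6.37% of Cblb-/- cells. In each of the 6 clusters the wild-type mean was above the Cblb-/- mean, for example 4617 ± 68.0 against 4353 ± 68.0 ppm in cluster 0 and 4832 ± 108 against 4525 ± 38.0 ppm in cluster 2 (SD, n = 3 each).

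Ung, Rpa2, Mcm6 and Ccne2 recurred among the calls within clusters. In cluster 0, 7 members fell (background 12.8%) and Ccne2 rose (background 9.06%). The 7 were Mcm6 (-0.22), Mcm7 (-0.22), Mcm5 (-0.12), Rpa2 (-0.24), Tyms (-0.15), Dtl (-0.17) and Ung (-0.17). In cluster 1 (background 9.62% lower and 9.22% higher) Mcm6 (-0.25), Mcm7 (-0.16), Rpa2 (-0.22) and Ung (-0.32) fell and Ccne2 (0.24) rose. In cluster 2 (11.7% and 8.39%) Mcm6 (-0.22), Nasp (-0.17), Rpa2 (-0.20), Ung (-0.39) and Rrm2 (-0.17) fell and none rose, with 11 members at an unadjusted p under 0.05. The share of all tested genes at that unadjusted p was 39.2% over all cells and was not computed within clusters. Rrm2, which overlapped between genotypes over all cells, was there at 305, 279.5 and 294 ppm in wild type and 263, 259.6 and 258 ppm in Cblb-/- libraries.

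The smaller clusters gave fewer calls. In cluster 4 (7.47% and 5.33%) Ung fell from 44.5 ± 4.90 to 31.0 ± 5.99 ppm (-0.52, adjusted p = 0.0176), with Rpa2 (-0.33) and Tyms (-0.25). In cluster 3 (3.85% and 4.54%) Ccne2 rose from 21.0 ± 1.54 to 29.2 ± 2.59 ppm (0.46, adjusted p = 0.0268) and no member fell, with 9 at an unadjusted p under 0.05, and in cluster 5 (4.68% and 4.90%) none passed (smallest adjusted p = 0.064, with 7 members at an unadjusted p under 0.05). For these unadjusted counts, too, the share over all tested genes was not computed. Together, 10 members were called in at least 1 cluster, with 19 lower and 3 higher calls in 246 tests of a member in a cluster. By cluster, 3.85% to 12.8% of all tested genes were called lower and 4.54% to 9.22% higher. No excess of calls among the members is read from these counts.

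Among the members the sign was shared more widely than the calls. In all 6 clusters 19 members had a log2 difference below 0, and Prim1, Pold3 and Ccne2 had one above 0. The clusters come from the same 6 libraries, so their signs are not independent. The share of all tested genes with the same sign in all 6 clusters was not computed, so no excess is read from these counts. Leaving out library A, B, C, D, E or F changed the number of members that fell from 7 to 2, 2, 1, 2, 8 and 5 in cluster 0, from 4 to 1, 1, 1, 3, 7 and 5 in cluster 1, from 5 to 3, 2, 1, 1, 4 and 2 in cluster 2, and from 3 to 2, 1, 1, 1, 5 and 3 in cluster 4. In clusters 3 and 5, where none fell with all libraries, 1 and 2 fell without D and 4 and 0 without E. Counts over all tested genes in a cluster under these omissions are not set beside them. No change particular to the members is therefore read from these counts. Ccne2 kept its call in cluster 0 without C or E only, in cluster 1 without D or E only, and in cluster 3 without E only.

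Whether a genotype difference was larger or smaller in a cluster than in the remaining cells was tested directly, on the log2 level in the cluster minus that in the other cells of the same library. No member passed in any of the 6 clusters in limma (smallest adjusted p = 0.103, for Ung in cluster 0). At an unadjusted p under 0.05 there were 1, 1, 3, 1, 1 and 0 members in clusters 0 to 5, without a share over all tested genes to set beside them. Over all genes this test called 0.555%, 0.0236% and 0.0118% in clusters 0, 1 and 2 and 0.00% in each of the other clusters. The more negative values of Ung in clusters 4 and 2 than in cluster 0 are therefore not shown to differ.

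**Figure D3:**
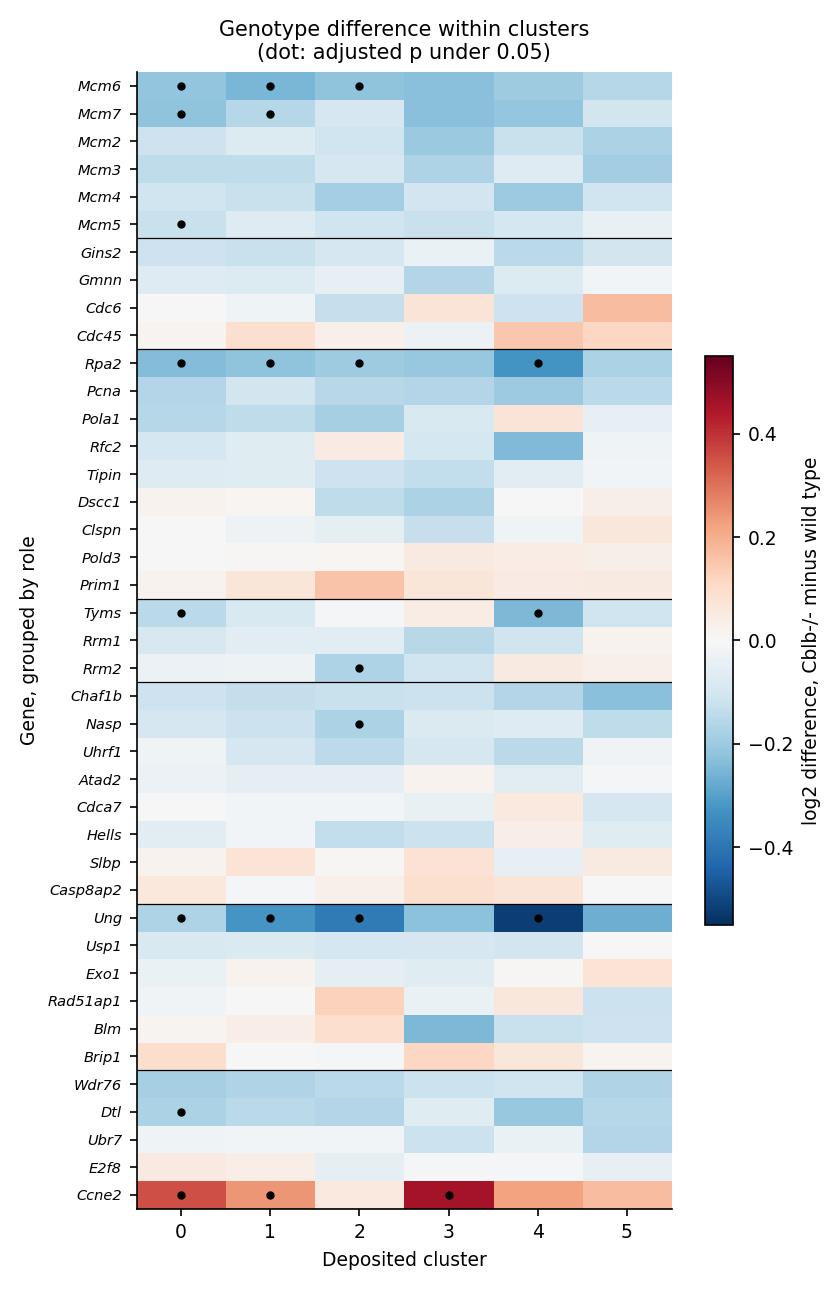
Log2 difference (Cblb-/- minus wild type, colour) of each replication gene, by row, within each deposited cluster, by column. Dots mark an adjusted p under 0.05. The Ung and Rpa2 rows are blue in every column and dotted in clusters 0, 1, 2 and 4, and the Ccne2 row is red in every column.

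The course of each gene over cells was described by ordering the cells of each library by the sum of 56 genes of G2 and mitosis, which holds none of the 41, and cutting them into 10 equal groups (deciles). A decile is a place in this order and was not matched to a phase of the cycle. From the lowest to the highest decile this sum went from 154 to 489 corrected counts per cell and the median raw UMI total from 30035 to 46810, so depth moved with the order. With only cells within 20% of the median raw UMI total, 12 of the 41 ratios of highest over lowest decile moved by more than the SD over libraries. The other 29 did not, and the part of depth in the profiles was not tested further. The 41 genes summed to 174 corrected counts per cell in the lowest decile, 204 in the next and 135 in the highest. For 25 members the highest decile was below the lowest in all 6 libraries, for 4 (Blm, Brip1, Rrm1 and Usp1) it was above, and 12 were mixed. The shares of all tested genes with such courses were not computed. By the mean over libraries, 29 members peaked in deciles 1 to 3, of which 21 in decile 2, then 11 in deciles 4 to 7, and Blm in decile 10.

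Ung had the steepest profile of the 41. Its mean was 4.09 corrected counts per cell in the lowest decile, 1.64 in decile 5 and 0.49 in the highest, a log2 ratio of -3.05 with a range of -3.30 to -2.67 over 6 libraries. No other member came near it. Ccne2 followed at -1.34 after a peak of 1.22 counts in decile 2, then the CAF-1 subunit Chaf1b at -1.15 and the MCM loader Cdc6 at -1.06. The MCM subunits ranged from -0.88 (Mcm6, 8.33 to 4.53 counts) to -0.54 (Mcm7). At the other end lay Blm and Brip1 at 0.70, E2f8 at 0.36, Pola1 at 0.34, Rrm1 at 0.26 and Usp1 at 0.22. Tyms was highest in the middle of the order, with 5.85 counts in the lowest decile, 8.5 in decile 5 and 6.28 in the highest. The subunits of ribonucleotide reductase differed: Rrm1 peaked in decile 6 and its partner Rrm2 in decile 3.

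**Figure D4:**
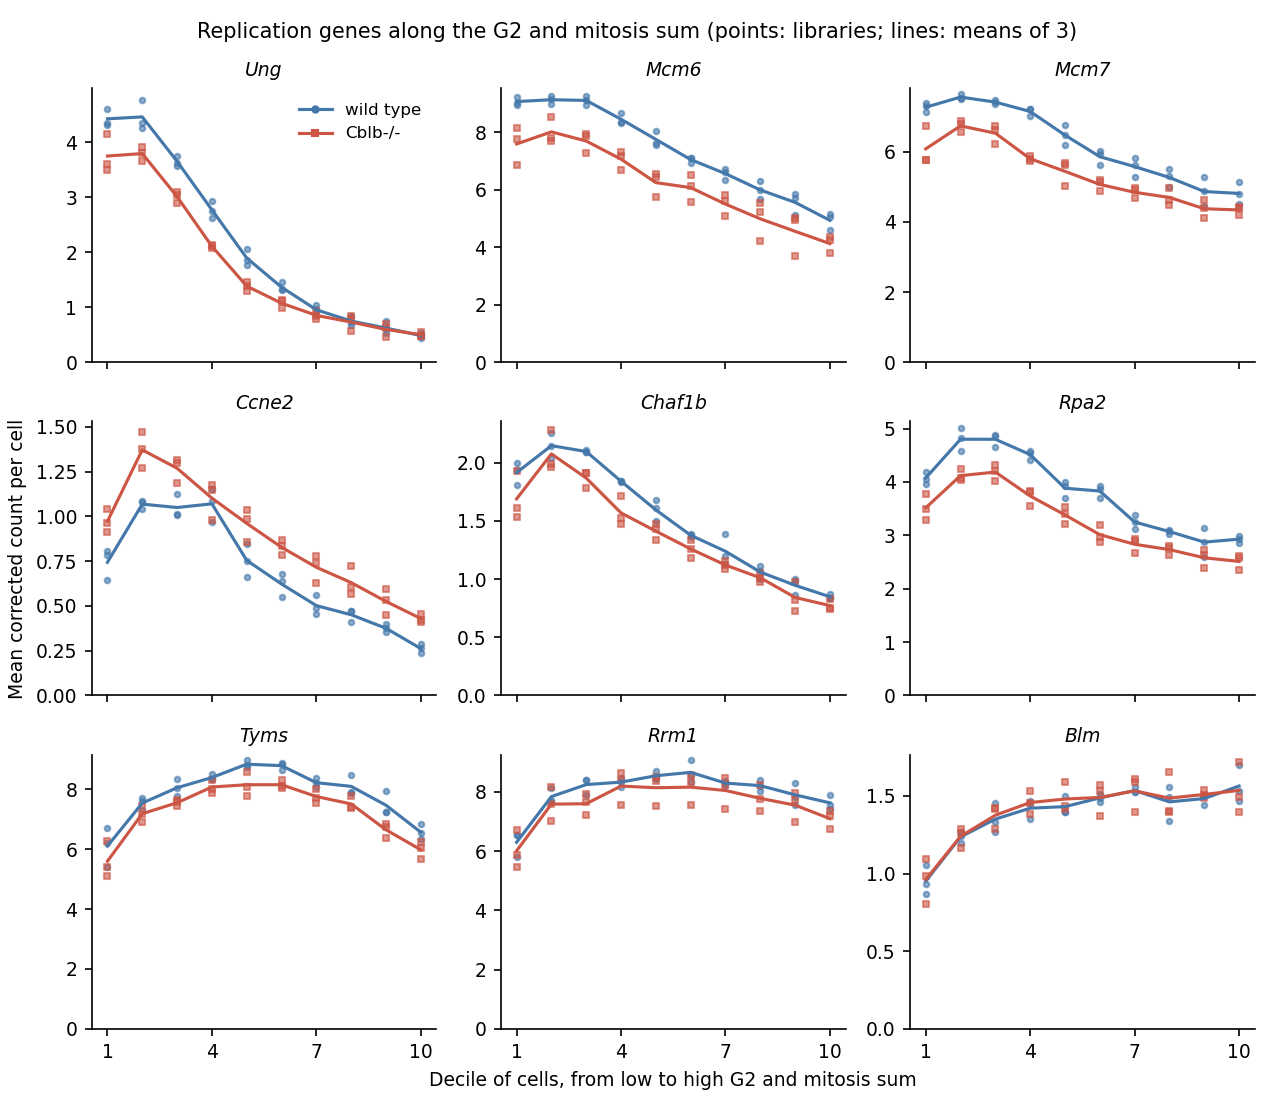
Mean corrected count per cell (y axis) of 9 replication genes in deciles of cells ordered by the G2 and mitosis sum (x axis, low to high), with points for libraries and lines for the means of 3 wild-type (blue) and 3 Cblb-/- (red) libraries. Ung declines from 4.42 to 0.48 in wild type, the Mcm6 lines stay apart in all 10 deciles, and Blm is highest at the right.

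The genotype difference was followed along the same order. In 118 of the 410 combinations of a member and a decile (28.8%) all 3 Cblb-/- libraries lay below all wild-type libraries, where the background over all tested genes was 20.2%, and in 22 (5.37%) they lay above, where the background was 15.7%. Mcm6 was separated in all 10 deciles, from 9.07 ± 0.137 against 7.59 ± 0.668 counts per cell in the lowest to 4.93 ± 0.303 against 4.13 ± 0.293 in the highest (SD, n = 3 each). Mcm7, Nasp and Rpa2 were separated in 9 deciles, Tyms in 8, and Mcm2, Mcm4, Mcm5 and Dtl in 6.

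Ung and Ccne2 followed different courses. Ung was separated in deciles 1 to 6, at 4.42 ± 0.155 against 3.75 ± 0.345 counts in decile 1 and 1.89 ± 0.155 against 1.38 ± 0.0878 in decile 5, and the genotypes overlapped at 0.48 ± 0.04 against 0.50 ± 0.05 in decile 10. Ccne2 was higher in every Cblb-/- library in 9 deciles, all but decile 4. In decile 10 its libraries read 0.236, 0.263 and 0.288 counts in wild type and 0.412, 0.422 and 0.455 in Cblb-/-, which did not overlap. When the 10 bins of the G2 and mitosis sum had the same edges in every library and equal weight, 11 members fell and Ccne2 rose, a setting chosen after seeing the data. No count over all tested genes in that setting is set beside these, so no stronger result for the members is read from it.

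Another order used the sum of the replication-dependent histones, which are transcribed in S phase and are likewise no members. The mean histone sum went from 6.12 to 61.9 corrected counts per cell from the lowest to the highest decile, with median raw UMI totals of 34240 and 41186. The G2 and mitosis sum rose along this order as well, from 268 to 361 corrected counts per cell. Here 32 members were higher in the highest than in the lowest decile in all 6 libraries, 4 were lower (Ung, Cdca7, Mcm2 and Hells) and 5 were mixed, and 22 peaked in decile 10. The shares of all tested genes were not computed for this order either. E2f8 had the largest log2 ratio at 1.92 (range 1.71 to 2.21), from 0.292 to 1.1 counts per cell. It was followed by Brip1 at 1.44, Pola1 at 1.11, Rad51ap1 at 1.04 and Tyms at 0.999, from 4.37 to 8.74 counts. At the low end were Ung at -0.68 (-0.92 to -0.44), Cdca7 at -0.31, Mcm2 at -0.21 and Hells at -0.17.

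The orders moved together, as the histone sum also rose along the G2 and mitosis order, from 18.9 to 35.4 corrected counts per cell. Along both, the members differed in course. In all 6 libraries 16 members were lower at the top of the G2 and mitosis order and higher at the top of the histone order, Mcm6 among them at -0.88 and 0.30. Ung was low at the top of both. Mcm2 and Mcm6, neighbours in the same ring, had opposite signs in the histone order, with ranges over 6 libraries of -0.36 to -0.10 and 0.21 to 0.38 that did not overlap.

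**Figure D5:**
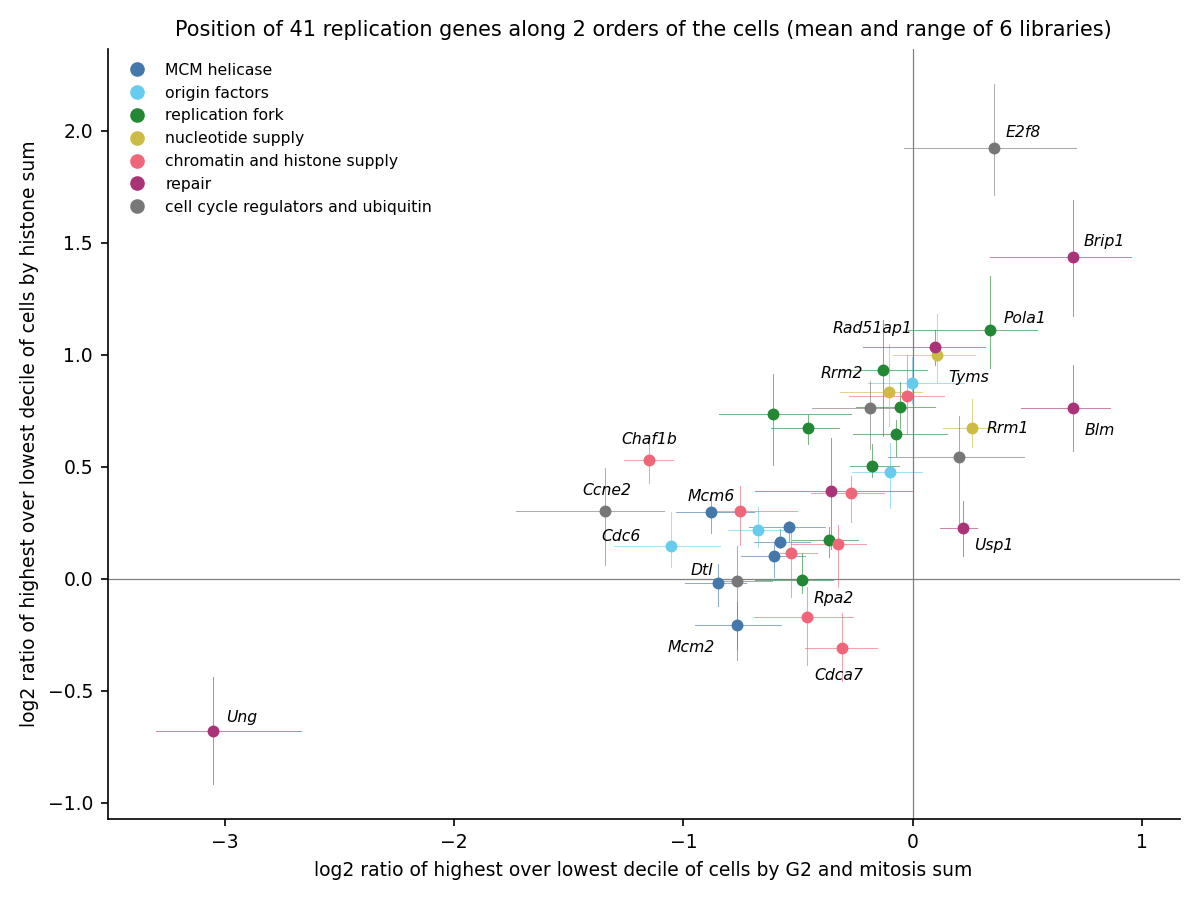
Log2 ratio of the highest over the lowest decile of cells by the G2 and mitosis sum (x axis) and by the histone sum (y axis) for the 41 replication genes, coloured by role, with points for means and thin lines for the range of 6 libraries. Ung lies alone at -3.05 and -0.68, and E2f8 and Brip1 lie at the top right.

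From cell to cell the genes differed in how widely they were spread. The decile of cells with the most counts of a gene held 17.5% of all counts for Nasp, which was at 0 in 0.00487% of cells, and 44.2% for Dscc1, which was at 0 in 61.1%. By the Fano factor (variance over mean) the order was the reverse, at 2.01 for Nasp and 1.18 for Dscc1. Their levels differed too, with wild-type means of 369 ppm for Nasp and 14.1 ppm for Dscc1. How far level sets the share held by the top decile was not tested. For Ung this share was 36.5%, with 34.9% of cells at 0 and a Fano factor of 2.69. Rrm2 had a Fano factor of 2.68 at a much higher level per cell. Ccne2 was at 0 in 54.1% of cells. The sum over the 41 genes had a median of 174 to 179 corrected counts per cell in wild-type and 161 to 167 in Cblb-/- libraries, and a 90th percentile of 241 to 246 against 227 to 230.0.

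Correlations over the cells of a library, averaged over 6 libraries, describe which genes varied together. They share the cells' depth and cycle position and carry no test. Over 820 pairs of members the median Pearson r of log2(value + 1) was 0.16, with 73 pairs above 0.3 and 10 below 0. The 15 MCM pairs had a median of 0.34, against 0.15 for the 98 other pairs within a role and 0.16 for 707 pairs across roles. Level differed too. The MCM subunits were at 0 in at most 4.98% of cells, while the other pairs include Dscc1 (61.1%), Ccne2 (54.1%) and Brip1 (51.3%). The part of level in r was not tested. Mcm3 with Mcm6 (0.41), Rrm2 with Tyms (0.41) and Mcm6 with Mcm7 (0.40) were the closest, and Cdca7 with Tyms (-0.06) the farthest. Against the sum of the other members, Mcm6 (0.60), Rrm2 (0.59) and Uhrf1 (0.57) were the most typical genes and Blm (0.12), Cdca7 (0.13) and Ubr7 (0.16) the least.

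Outside the 41 and the related lists, the genes whose profile over cells was most like the summed members included Pclaf, which encodes a PCNA-associated factor (mean r 0.52, range 0.45 to 0.59 over 6 libraries), Siva1 (0.45), Tcf19 (0.43), the histone co-chaperone Dnajc9 (0.42), the condensin II subunit Ncapg2 (0.35), Ybx1 (0.35), Hnrnpab (0.34), Fam111a (0.33) and Mrpl18 (0.33). From the related lists the nucleotide enzyme Dut reached 0.55, the DNA ligase Lig1 0.50 and the origin subunit Orc6 0.46. At the opposite end were Arl6ip1 (-0.38) and the mitotic ubiquitin enzyme Ube2s (-0.36).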

How the data were processed

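Single-cell RNA (10x Genomics 3′ v3) was measured in 6 Th9 libraries, 3 per genotype. Per the file headers, the deposited gene values are sctransform-corrected counts made by the authors, used here as a score and not as raw counts. The raw UMI count total per cell and the percent of mitochondrial UMIs per cell were deposited by the authors beside them, with cluster, library and genotype (lowest total 15006 UMIs). Cell Ranger 3.0.2, Seurat 3.0.0 and mm10 are named per the submitters' processing notes, without roles, and how doublets were treated is not given in the sources used here.

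Values were summed per library, or per library and cluster, and scaled to ppm. Genes averaging 5 ppm or more over the libraries entered the test, on log2(ppm + 1), 3 against 3 libraries, with limma 3.58.1 in R 4.3.3 (trended prior variance, two-sided, Benjamini-Hochberg over all tested genes, threshold 0.05), and a fold change of a low gene is understated by the pseudocount. All 41 members passed the filter. On simulated data for the comparison over all cells (8475 genes, 10 runs), 500 changes of each fold were made over the runs. The fit recovered 3.2% of 1.1-fold, 53.0% of 1.25-fold, 83.2% of 1.5-fold and 96.6% of 2-fold changes. Far fewer genes were changed in each run than the 1139 that fell and 929 that rose in the data. Recovery in the data can therefore differ. The members and lists were chosen with earlier results of these data known. Named genes are all members, with every library's value for those called and the 3 uncalled with the largest difference, the up to 4 called genes with the largest difference in each related list, and the 10 genes most correlated with the summed members, of which 1 is not reported here. Gene positions are from GENCODE M21. No member overlaps a protein-coding gene on its strand. Python 3.11.15 with pandas 2.3.3, numpy 2.4.6 and matplotlib 3.10.9 was used.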

Additional observations from a re-analysis of the deposited data

How the results depend on the processing

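Over all cells, 2 to 11 members fell and 0 to 1 rose when 1 library was left out, against 7 and 1 with all. With each cluster weighted equally 4 fell, and with equal weight for 10 bins of the G2 and mitosis sum (added after seeing the data) 11 fell. Counts over all tested genes under these weightings are not set beside them, so no change particular to the members is read. Ung and Rpa2 passed in all 19 alternatives, Mcm7 in 18, Mcm6 and Ccne2 in 17, Dtl in 14, Nasp in 9 and Chaf1b in 8. The members called over all cells reversed in none of them. Uncalled members close to 0 did reverse. Leaving out 1 library gave -0.0148 to 0.0576 for Blm, -0.0454 to 0.0224 for Cdc6, -0.0577 to 0.0169 for Dscc1, -0.00292 to 0.0208 for Exo1, -0.0842 to 0.0365 for Hells, -0.0029 to 0.0508 for Pold3, -0.0122 to 0.0891 for Prim1, -0.0254 to 0.0414 for Rad51ap1, -0.0637 to 0.00356 for Rrm2 and -0.0681 to 0.0125 for Ubr7. Under median-of-ratios scaling Blm was at -0.00456, Exo1 at -0.00782 and Rad51ap1 at -0.00698, and under upper-quartile scaling Exo1 was at -0.00052. With cells within 20% of the median raw UMI total, Dscc1 was at 0.00928, Exo1 at -0.00235 and Rad51ap1 at -0.00645. With clusters weighted equally, Blm was at -0.0555, E2f8 at -0.00551 and Exo1 at -0.0095. Cdc6 was at 0.00775 as a mean of log2(value + 1), and Exo1 at -0.0021 with the bins. The cause was not tested.

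Within clusters, the omissions gave 1 to 8 members that fell in cluster 0, 1 to 7 in cluster 1, 1 to 4 in cluster 2, 0 to 4 in cluster 3, 1 to 5 in cluster 4 and 0 to 2 in cluster 5, and 0 to 1 that rose in clusters 0, 1 and 3. A mean of at least 20 ppm left 0 higher in cluster 1 and gave 1 lower in cluster 3. The cells near the median depth gave 8 lower and 0 higher in cluster 1 and 0 higher in cluster 3. For these settings within clusters, counts over all tested genes are not set beside those of the members.

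Among the related lists, the omissions gave 15 to 20 histone genes that fell, 3 to 9 nucleotide synthesis genes that fell and 0 to 1 that rose, 1 to 6 chromatin assembly genes that fell, 0 to 4 polymerase, clamp and fork genes that fell and 1 to 2 that rose, 0 to 3 origin and helicase genes that fell and 0 to 1 that rose, 0 to 3 repair and checkpoint genes that fell and 0 to 2 that rose, 0 to 7 genes of G2 and mitosis that fell and 1 to 7 that rose, and 0 to 2 E2F, RB and cyclin regulators that fell and 2 to 10 that rose. Without a filter 37 histone genes fell and 1 rose, 2 chromatin assembly genes fell and 0 repair and checkpoint genes fell. With a mean of at least 20 ppm, 6 histone genes, 1 repair and checkpoint gene and 1 E2F, RB and cyclin regulator fell. Both other scalings gave 2 origin and helicase genes that fell. Prior variance without trend gave 2 chromatin assembly and 1 repair and checkpoint gene that fell. The cells near the median depth gave 2 chromatin assembly, 0 origin and helicase and 1 repair and checkpoint gene that fell and 2 genes of G2 and mitosis that rose. Scaling each cell to its own sum gave 1 E2F, RB and cyclin regulator that fell, and the mean of log2(value + 1) gave 1 repair and checkpoint gene that fell. With clusters weighted equally, 0 origin and helicase, 5 polymerase, clamp and fork and 0 repair and checkpoint genes fell, and 2 genes of G2 and mitosis rose. Without the cells high in low-oxygen genes, 2 chromatin assembly genes, 1 polymerase, clamp and fork gene and 1 repair and checkpoint gene fell. With the bins, 2 chromatin assembly genes, 1 repair and checkpoint gene and 1 E2F, RB and cyclin regulator fell and 8 genes of G2 and mitosis rose. For the lists, too, counts over all tested genes in each setting are not set beside these.

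Of the 41 decile ratios, 10 moved by more than the SD over libraries with 5 groups of cells and 12 with cells near the median depth. No paired analysis was possible because the table carries no replicate numbers for its libraries. With 3 libraries per genotype, differences near 1.1-fold lie at the limit of the test.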
